A study of Mus musculus with 12 samples.

Results

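Knockout tail fibroblasts, with both copies of the long noncoding RNA gene Hotair disrupted, were set against heterozygous cells, with 1 disrupted copy. The members are autosomal genes that reached 1 RPKM in 2 or more of the 4 libraries compared, 10330 of the 24132 gene symbols measured. RPKM scales reads to transcript length and library size, so a level is comparable between genes of different length. The samples were 6 polyadenylated RNA libraries of fibroblasts grown from the tail tips of newborn mice backcrossed to C57BL6, with 2 libraries for each genotype: wild type, heterozygous and knockout. No label names a treatment, so the groups differ by genotype alone as far as the labels go. The labels do not say how many animals or cultures stand behind a genotype, nor the age in days or the sex of the donors.

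Hotair is transcribed from the HoxC cluster, antisense to its coding neighbours, and belongs to the genes that keep a record of body position in fibroblasts. It has been studied as a scaffold for 2 repressive machines: Polycomb repressive complex 2 (PRC2), which places a silencing methyl mark on histone H3, and the LSD1-CoREST complex, which removes an activating one. Tail fibroblasts make connective tissue matrix, and the tail tip holds tendons and joints beside the skin. The comparison asks what changes when the remaining intact copy of Hotair is lost as well.

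Each heterozygous library held 31.2M to 33.2M aligned read equivalents and each knockout library 46M to 48.1M, of which 47.5% to 48.8% fell in gene rows. Libraries of 1 genotype differed little more than counting allows (mean squared difference of 1.45 counting variances in heterozygous and 1.71 in knockout cells, against 24.8 between the first libraries of the 2 genotypes). The p-values therefore measure the spread among these libraries alone, and that spread may be technical. The genotypes also differed in sex-linked genes. Xist, the RNA of the inactive X chromosome, stood at 4.65 and 4.46 RPKM in the heterozygous libraries, against 0.0209 and 0.00606 in knockout and 0.0414 and 0.0479 in wild-type libraries. The Y gene Ddx3y showed the reverse, with 0.133 and 0.216 RPKM in heterozygous, 2.88 and 2.86 in knockout and 1.68 and 1.80 in wild-type libraries, and Eif2s3y, Kdm5d and Uty followed the same order. Both heterozygous libraries stand apart in this way, so neither can be left out for it, and the effect of genotype and of this sex-linked difference cannot be told apart in any result below. Wild-type values, whose sex-linked genes resemble those of knockout cells, are given beside the leading genes for this reason.

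Hotair was at 0.213 and 0.172 RPKM in the heterozygous libraries, or 7.88 and 5.97 read equivalents, and at 0 in both knockout libraries. The heterozygous mean lay 6.72-fold above the floor of 0.0287 RPKM that 3 reads over the whole knockout group would give. Values this low passed no filter and were not tested. Its HoxC neighbours on chromosome 15 moved little. Hoxc12 stood at 12.4 and 14.6 RPKM in heterozygous and 12.6 and 13.6 in knockout cells, and Hoxc13 at 9.33 and 9.36 and 9.51 and 9.34; neither passed the test (adjusted p = 0.747 and adjusted p = 0.809). Hoxc11, which overlaps Hotair on the opposite strand, went from 3.74 and 3.57 to 2.97 and 3.12 RPKM (log2 difference -0.20 ± 0.067, adjusted p = 0.0383), a call that was lost without any 1 of the 4 libraries (adjusted p = 0.0739 to 0.165) and with no filter (0.1). No source used here says whether counting was by strand, so the reads of both genes may not be separable.

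Differences were taken on the log2(RPKM + 1) scale, which understates the change of genes near 1 RPKM, and were tested with limma with Benjamini-Hochberg adjustment over all genes and a threshold of 0.05; ± marks the SE of the fit. By this rule 51.9% of the 10330 genes were called, 2693 higher (26.1%) and 2668 lower (25.8%) in knockout cells. The 2 libraries of a genotype lay so close together that small shifts passed: 89.4% of the calls were under 0.5 on the log2 scale. The libraries of the 2 genotypes did not overlap for 77.8% of the genes, 38.7% higher and 39.1% lower. A difference of at least 2-fold on this scale without overlap was much rarer, at 0.707% (73 genes, of which 47 or 0.455% were higher and 26 or 0.252% lower). The counts of each gene list stand against these shares. Of the 10330 genes, 251 passed the filter through the knockout libraries alone and 82 through the heterozygous ones alone, and such genes had to differ. Where a list holds any, its counts without them follow.

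**Figure D1:**
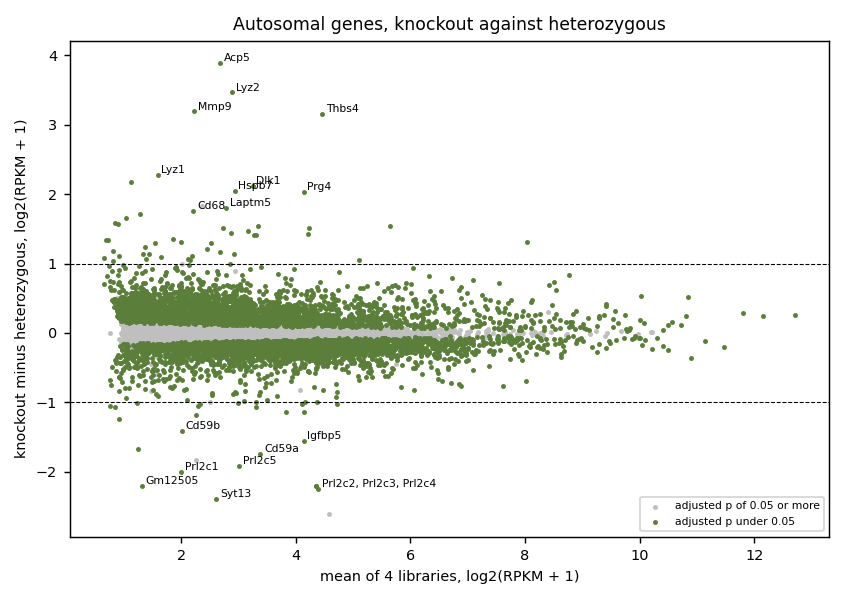
Difference between knockout and heterozygous cells (vertical axis, log2(RPKM + 1)) against the mean level of each of the 10330 autosomal genes (horizontal axis, same scale); green points passed the test and the dashed lines mark 2-fold. Most green points lie close to 0, while Acp5, Lyz2, Mmp9 and Thbs4 rise above 3 and Syt13 and the proliferin genes fall below -1.9.

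The balance of the calls differed between levels. Among the 2574 genes under 3 RPKM, 883 were higher and 304 lower, with a median log2 difference of 0.085. Among the 2531 genes from 10 to 30 RPKM, 532 were higher and 913 lower, with a median of -0.051, and from 30 to 100 RPKM 230 were higher and 488 lower. Over 100 RPKM the counts were closer again, with 148 higher and 180 lower (median -0.027). The knockout libraries were also the deeper ones, and the part of depth in this pattern was not tested. With a filter at 5 RPKM, 40.6% of the calls were higher (1519 against 2221 lower), compared with 50.2% as reported.

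The 15 largest rises included genes of macrophages, osteoclasts, tendon and joint surface, beside Dlk1, Hspb7 and Apol10b, and the 15 largest falls included the proliferin family and Syt13, Cd59a, Aldh3a1 and Igfbp5. Apol10b passed the filter through the knockout libraries alone. The 30 genes plotted by library were chosen among called genes whose heterozygous and knockout values were separate.

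**Figure D2:**
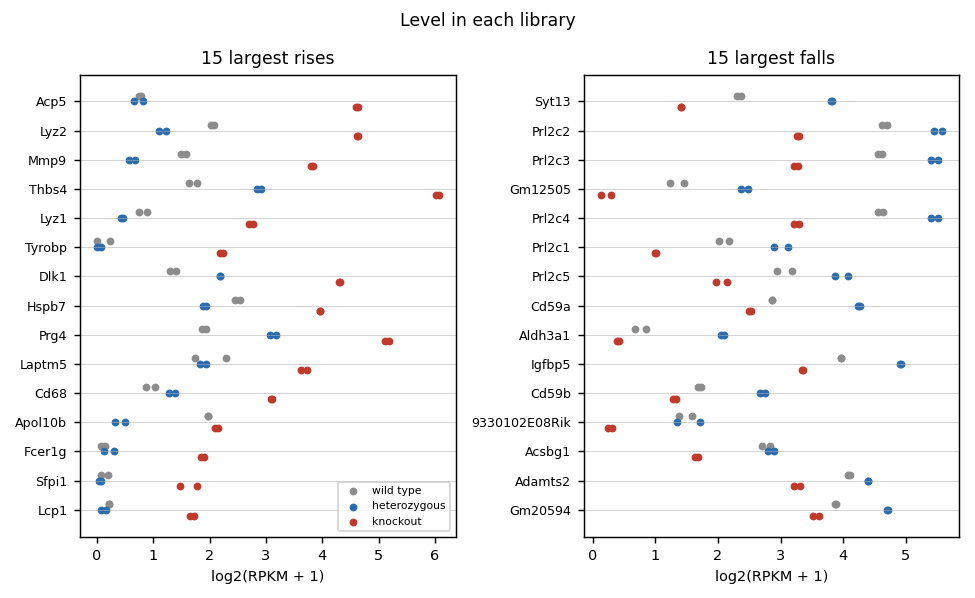
Level of the 15 genes with the largest rise (left) and the 15 with the largest fall (right) in each library, on the log2(RPKM + 1) axis; each point is 1 library, 2 per genotype. Red knockout points lie to the right of the blue heterozygous points in the left panel and to their left in the right panel, and grey wild-type points show where the heterozygous cells themselves differ from wild type.

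Acp5, the tartrate-resistant acid phosphatase that marks osteoclasts and some macrophages, led the list. It was at 0.582 and 0.754 RPKM in the heterozygous and 23.3 and 24.0 in the knockout libraries, with 0.716 and 0.674 in wild type, a 35.4-fold rise in RPKM and a log2 difference of 3.89 ± 0.059 (adjusted p = 1.03e-07). Both knockout libraries stood far above all 4 others. Lyz2, the lysozyme of macrophages and neutrophils, went from 1.33 and 1.13 to 23.8 and 23.5 RPKM (3.47 ± 0.054, adjusted p = 1.03e-07), against 3.20 and 3.06 in wild type, so that the heterozygous cells were the lowest of the 3 genotypes. Lyz1, a close copy whose row may share reads with Lyz2, went from 0.352 and 0.375 to 5.46 and 5.80 RPKM. Mmp9, a gelatinase of osteoclasts and migrating leukocytes, rose from 0.488 and 0.602 to 13.3 and 12.9 RPKM (3.19 ± 0.056, adjusted p = 1.38e-07), again with wild type between them at 1.82 and 1.97. Acp5, Mmp9 and Lyz1 passed the filter through the knockout libraries alone.

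Further myeloid genes moved with these. Cd68, a lysosomal protein of macrophages, rose from 1.61 and 1.42 to 7.47 and 7.61 RPKM (4.98-fold, 1.76 ± 0.068). Laptm5, a lysosomal protein of blood cells, rose from 2.81 and 2.56 to 11.4 and 12.3 RPKM (1.80 ± 0.16). For several others the heterozygous level rested on a few reads or none, so no ratio is given. Tyrobp, a signalling adaptor of myeloid receptors, stood at 0 and 0.0562 RPKM in heterozygous and 3.72 and 3.56 in knockout libraries. Fcer1g stood at 0.0895 and 0.234 and 2.59 and 2.71. Sfpi1, the gene of the myeloid master regulator PU.1, stood at 0.0225 and 0.0454 and 1.79 and 2.42 RPKM, and Lcp1, the actin bundling protein of leukocytes, at 0.117 and 0.0514 and 2.14 and 2.30. These 4 genes passed the filter through the knockout libraries alone and therefore had to differ. Csf1r, the receptor for the macrophage growth factor, did so as well, at 0.755 and 0.658 and 2.76 and 2.73 RPKM.

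Over the 24 macrophage and leukocyte genes of the list, 10 passed the filter, 4 of them through the knockout libraries alone. Of the other 6, 3 rose and 2 fell. Gpnmb, a glycoprotein that melanocytes also make, was among those that fell (-0.52). Cd14, a receptor for bacterial lipopolysaccharide, was at 1.82 and 1.53 RPKM in heterozygous and 2.02 and 1.92 in knockout libraries and did not pass the test (adjusted p = 0.0906; adjusted p = 0.0346 without the first heterozygous library). A further 14 members lay under the filter, and in 12 of them both knockout libraries exceeded both heterozygous ones, compared with 30.1% of the 7133 autosomal genes under the filter and above 0. Among 17 genes listed as markers of these cells, which leave out Gpnmb, 15 were higher without overlap and 0 lower. Of the 10330 genes tested, 38.7% were higher without overlap and 39.1% lower. Of the 17 markers, 4 passed through the knockout libraries alone and 9 lay under the filter, 7 of these higher without overlap. The summed level of the 17 was 8.32 to 9.19 RPKM in heterozygous, 62.2 to 63.2 in knockout and 10.4 to 11.7 in wild-type libraries. Ptprc, the pan-leukocyte marker CD45, stood at 0.0576 and 0.0683 RPKM in knockout and 0.00528 and 0.0169 in heterozygous libraries, and the macrophage marker Emr1 at 0.397 and 0.275 and at 0 in both heterozygous ones. In bulk RNA, more cells of a type and more RNA of that type per cell cannot be told apart, nor fewer cells and less RNA, and the part of myeloid cells in the results of this comparison was not tested.

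Genes of osteoclasts, the bone-resorbing cells that form by fusion of myeloid precursors, moved in both directions. Besides Acp5 and Mmp9, the proton pump subunit Atp6v0d2 stood at 1.51 and 1.60 RPKM in knockout and 0 and 0.0256 in heterozygous libraries, and all 3 of these genes passed through the knockout libraries alone. The fusion genes Dcstamp (0.626 and 0.798 RPKM) and Ocstamp (0.916 and 0.772) stayed under the filter, with 0 and 0 and 0.0154 and 0.0328 RPKM in heterozygous libraries. Others fell: Ctsk, the collagen-cleaving cathepsin K, went from 13.2 and 15.3 to 11.4 and 10.6 RPKM (-0.34 ± 0.065, adjusted p = 0.00371), Itgb3, an integrin subunit, from 5.81 and 5.83 to 4.55 and 4.81 (-0.26 ± 0.042), and Car2, a carbonic anhydrase that passed through the heterozygous libraries alone, from 1.08 and 1.16 to 0.499 and 0.628 (-0.44 ± 0.074). Tnfrsf11a, the receptor RANK of osteoclast precursors, went from 1.08 and 1.20 to 0.915 and 0.879 RPKM (-0.17 ± 0.056, adjusted p = 0.0362), a call lost without the second heterozygous or either knockout library (adjusted p = 0.108 to 0.164). Like Car2, Tnfrsf11a passed the filter through the heterozygous libraries alone and so had to be lower in knockout cells. Of the 17 list members that passed, 6 were higher and 6 lower. Of the 17, 5 passed through the knockout libraries alone and 2 through the heterozygous ones alone. Over the other 10, 1 rose and 4 fell, with a median of -0.0058.

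**Figure D3:**
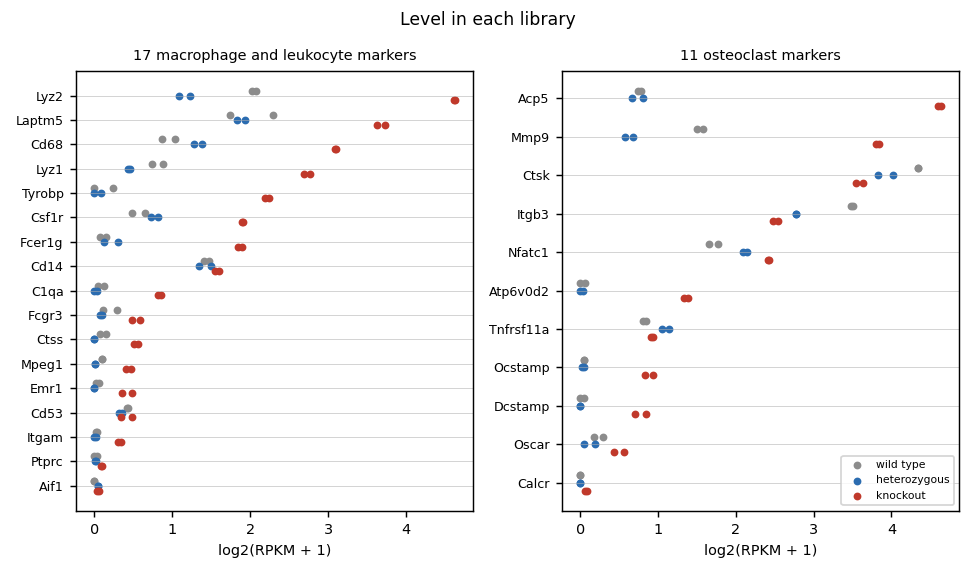
Level of 17 macrophage and leukocyte markers (left) and 11 osteoclast markers (right) in each library, on the log2(RPKM + 1) axis; each point is 1 library, 2 per genotype. Lyz2, Laptm5, Cd68, Acp5 and Mmp9 stand far to the right in knockout cells, while Ctsk, Itgb3 and Tnfrsf11a lie slightly to the left of the heterozygous points.

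Ligands of these cells gave both signs. Csf1, the macrophage growth factor, went from 238 and 238 to 222 and 224 RPKM (-0.095 ± 0.015, adjusted p = 0.00153), and Il34, the other ligand of its receptor, fell from 3.55 and 3.96 to 1.79 and 1.83 (-0.76 ± 0.082, adjusted p = 0.000299). Tnfsf11, the osteoclast differentiation factor RANKL, was at 3.32 and 2.84 and 2.58 and 2.60 RPKM (-0.18 ± 0.062, adjusted p = 0.0434), a call lost without the first heterozygous or either knockout library (adjusted p = 0.131 to 0.213), with no filter (0.105), after median scaling (0.051) and with the 4 libraries only (0.0596). Its decoy receptor Tnfrsf11b, osteoprotegerin, rose from 0.506 and 0.427 to 1.05 and 1.02 (0.47 ± 0.064), and passed the filter through the knockout libraries alone. These 4 genes were picked from their list after their values were seen. Across the chemokine and cytokine list, 4 of 17 members that passed were higher and 10 lower (1 and 9 of 13 without those that passed through 1 genotype alone), with a median log2 difference of -0.17 (-0.011 with no filter) beside -0.0036 for all genes. Il11, a cytokine that fibroblasts release on activation, fell from 27.3 and 28.9 to 13.7 and 13.5 RPKM (-0.995 ± 0.036, adjusted p = 2.14e-06), with 19.9 and 19.8 in wild type. Ccl8, a monocyte attractant, went from 14.0 and 12.8 to 7.10 and 7.75 RPKM (-0.77 ± 0.059). Ccl9, a chemokine of myeloid cells and osteoclasts, went the other way, from 0.255 and 0.304 to 1.69 and 1.83 RPKM (1.11 ± 0.058), and passed the filter through the knockout libraries alone. Cxcl14 also rose, from 28.2 and 28.3 to 38.1 and 38.1 RPKM (0.42 ± 0.027).

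Of the tendon and joint genes 5 rose by at least 2-fold on the log2(RPKM + 1) scale. Thbs4, a thrombospondin of tendon and muscle matrix, stood at 6.20 and 6.54 RPKM in the heterozygous and 66.0 and 63.5 in the knockout libraries, with 2.09 and 2.44 in wild type; the rise was 10.2-fold in RPKM and 3.16 ± 0.058 on the log2 scale (adjusted p = 1.38e-07). The 3 genotypes were separate, in the order wild type, heterozygous, knockout. Prg4, the joint lubricant lubricin, held the same order, with 2.64 and 2.83, 8.01 and 7.38 and 33.8 and 35.4 RPKM (2.03 ± 0.051 between knockout and heterozygous). So did Abi3bp, a matrix protein, with 0.702 and 0.907, 2.80 and 2.99 and 10.4 and 9.88 RPKM (1.52 ± 0.065). Of 13 list members that passed, 8 were higher and 3 lower (8 and 2 of 12 without the 1 that passed through the heterozygous libraries alone), with a median log2 difference of 0.41. This median was 0.107 with no filter, 0.27 with a pseudocount of 5 and 0.79 with a filter at 5 RPKM. Angptl7 (1.47) and Cilp (1.14), both secreted proteins, were among the higher ones, and Htra1, a secreted serine protease, fell from 36.2 and 36.9 to 17.7 and 17.1 RPKM (-1.03 ± 0.029). Scx, the transcription factor of the tendon lineage, changed little, from 5.21 and 5.25 to 6.69 and 6.20 RPKM (0.26 ± 0.048, adjusted p = 0.0037), and Mkx, another tendon regulator, did not pass the test (adjusted p = 0.253). The 6 autosomal tendon markers summed to 61.0 and 64.0 RPKM in heterozygous, 144 and 142 in knockout, and 37.0 and 38.1 in wild-type libraries. Thbs4 alone held 6.20 and 6.54 RPKM of the heterozygous sums and 66.0 and 63.5 of the knockout sums. None of the 6 was at 0 in either genotype, and their part in other results was not tested.

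Small leucine-rich proteoglycans, which bind collagen and set the width of its fibrils, rose in 7 of 9 cases and fell in 2, with a median of 0.40 (0.11 with no filter, 0.15 with a pseudocount of 5). Lum, lumican, went from 6.89 and 6.27 to 13.4 and 13.9 RPKM (0.95 ± 0.051, adjusted p = 1.2e-05), Ogn, osteoglycin, from 2.30 and 2.12 to 4.79 and 4.37 (0.80 ± 0.058), and Fmod, fibromodulin of tendon, from 9.56 and 9.76 to 17.4 and 17.3 (0.79 ± 0.041). Podnl1 fell from 6.07 and 5.61 to 3.48 and 3.51 RPKM (-0.60 ± 0.049). Knockout and heterozygous values were separate for each of these 4.

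Collagen chains were more often lower: 14 of 20 members were lower and 2 higher (13 and 2 of 19), with a median log2 difference of -0.20 (-0.13 with no filter). Col5a3, a fibril-regulating chain, fell from 29.3 and 28.0 to 15.3 and 16.1 RPKM (-0.83 ± 0.038, adjusted p = 5.8e-06), and Col3a1, a chain of loose connective tissue, from 164 and 163 to 111 and 115 (-0.53 ± 0.020). The basement membrane chains Col4a1 and Col4a2, which share a promoter region, fell together, from 121 and 117 to 82.0 and 83.8 RPKM and from 104 and 106 to 72.3 and 72.5 RPKM. Adamts2, the protease that trims the amino end of procollagen, fell from 20.1 and 20.1 to 8.87 and 8.23 RPKM (2.35-fold lower, -1.14 ± 0.041, adjusted p = 2.14e-06). The collagen crosslinking oxidase Lox rose from 270.4 and 269.5 to 435 and 435 RPKM (0.69 ± 0.015, adjusted p = 2.25e-07), with 199 and 203 in wild type.

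The matricellular and calcium-binding matrix proteins split evenly, with 11 of 25 list members higher and 12 lower (10 and 12 of 24). Tnc, tenascin C of injured tissue and tendon, fell from 324 and 331 to 201 and 201 RPKM (-0.70 ± 0.016, adjusted p = 2.52e-07). Spp1, osteopontin, rose from 317 and 330.2 to 579 and 576 RPKM (0.84 ± 0.020), and Mgp, an inhibitor of calcification, from 26.3 and 29.9 to 85.7 and 82.2 (1.55 ± 0.066), continuing a step from 6.71 and 7.48 in wild type. Metalloproteinases and their inhibitors were also mixed, 7 higher and 6 lower of 18 (6 and 5 of 16): Mmp23 rose from 16.0 and 15.6 to 25.6 and 24.3 RPKM (0.63 ± 0.040), and the inhibitor Timp3 fell from 117 and 118 to 83.7 and 83.7 (-0.49 ± 0.018). The 11 fibroblast markers, Col1a1, Vim and others, all passed, with 4 higher and 7 lower, and summed to 5521 to 5616 RPKM in heterozygous and 5511 to 5532 in knockout cells. The label of fibroblast was thus matched by its markers in all 4 libraries.

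The insulin-like growth factor axis, in which binding proteins hold and release the growth factors, gave 7 higher and 6 lower of 19. Igfbp4 was the member with the smallest p: it stood at 165 and 166 RPKM in heterozygous and 409 and 415 in knockout cells (2.50-fold, 1.31 ± 0.016, adjusted p = 6.72e-08), with 169 and 173 in wild type. Igfbp5, another binding protein, fell from 29.0 and 29.2 to 9.18 and 9.25 RPKM (3.16-fold lower, -1.56 ± 0.031, adjusted p = 1.83e-07), and its heterozygous level lay above wild type (14.7 and 14.6). Igfbp7 fell from 112 and 110.4 to 69.9 and 70.5 RPKM (-0.66 ± 0.026), whereas Igfbp2 (0.71 ± 0.073) and Igfbp6 (0.62 ± 0.036) rose. Igfbp3, the main carrier in serum, was not called (0.081, adjusted p = 0.0558; it was called after quantile normalization, with a pseudocount of 5, with no filter and with the 4 libraries only, at adjusted p = 0.0141 to 0.0374).

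The title of the series speaks of imprinted genes, which are expressed from 1 parental copy. Paternally expressed members gave 6 higher and 5 lower of 18 (5 and 4 of 16; median -0.021) and maternally expressed ones 8 higher and 8 lower of 20 (7 and 8 of 19; median 0.0037). The maternally expressed members were thus called in 16 of 20 cases, evenly in both directions, beside 51.9% of all genes. Dlk1, a membrane protein related to Notch ligands, went from 3.52 and 3.57 to 18.7 and 18.8 RPKM (5.30-fold, 2.12 ± 0.048, adjusted p = 2.52e-07), against 1.46 and 1.65 in wild type. Meg3, Rian and Mirg, maternally expressed noncoding RNAs of the same domain on chromosome 12, rose as well: Meg3 from 3.63 and 3.68 to 7.49 and 7.31 RPKM (0.85 ± 0.041), Rian from 39.1 and 39.3 to 63.2 and 63.7 (0.68 ± 0.029) and Mirg from 2.38 and 2.87 to 4.65 and 4.74 (0.65 ± 0.069). Dio3, a thyroid hormone deiodinase in that domain, did not pass the test, at 81.5 and 82.8 RPKM in heterozygous and 82.2 and 84.7 in knockout libraries (0.021 ± 0.025, adjusted p = 0.504; quantile normalization gave 0.076 and an adjusted p of 0.0342). H19 and Igf2, neighbours on chromosome 7, both rose. H19, a noncoding RNA, went from 9.82 and 10.4 to 30.2 and 31.0 RPKM (3.03-fold, 1.51 ± 0.039), and Igf2, the fetal growth factor, from 1.04 and 0.981 to 2.28 and 2.35 (0.72 ± 0.051). Peg10, an imprinted gene of retroviral origin, fell from 10.7 and 10.7 to 7.27 and 7.59 RPKM (-0.47 ± 0.039).

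**Figure D4:**
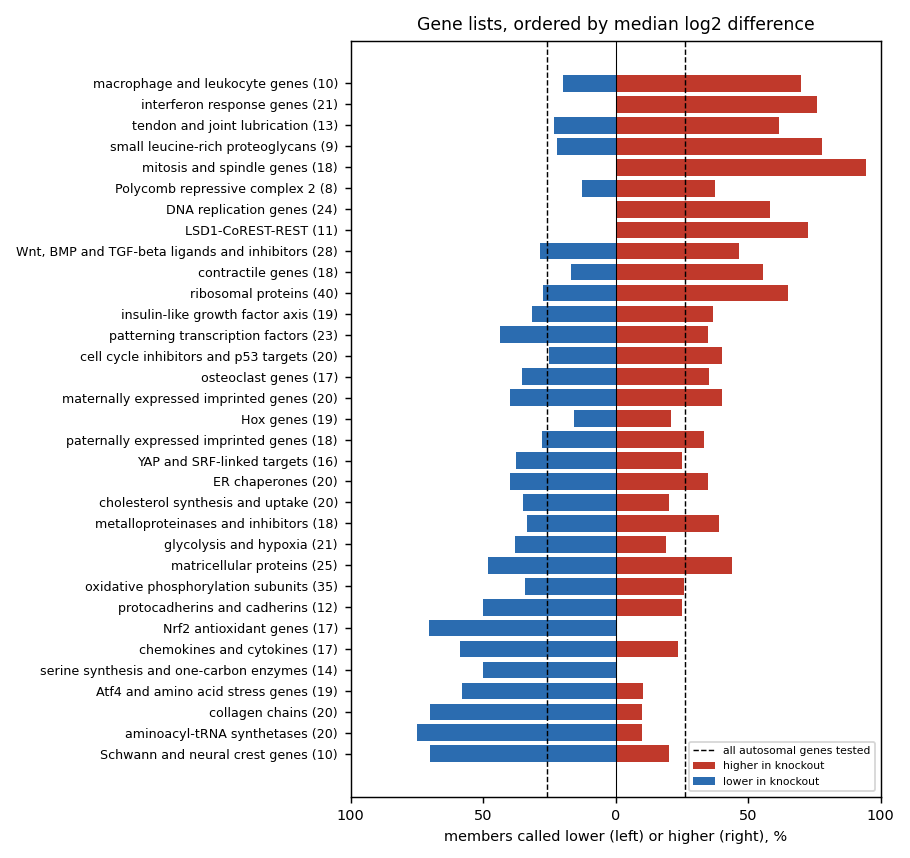
Share of the members of each gene list called higher (red, right) or lower (blue, left) in knockout cells, in percent of the members that passed the filter, whose number stands in brackets; dashed lines mark the 26.1% higher and 25.8% lower among all 10330 autosomal genes. Mitosis, interferon and proteoglycan lists extend far to the right, while aminoacyl-tRNA synthetases, collagen chains, Nrf2 and Schwann cell lists extend to the left.

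Interferon response genes, which encode antiviral proteins and antigen presentation factors, were higher in knockout cells in 16 of 21 cases and lower in 0, with a median log2 difference of 0.50 (0.22 with a pseudocount of 5). Of the 17 that did not pass through 1 genotype alone, 12 were higher. Many such genes carry the interferon stimulated response element, taken here as 2 copies of GAAA with any 2 bases between them and searched on both strands. To show where it lies, 3 of the called members are printed, as the 250 bases before the start site in RefSeq (GRCm38.p6), 5′ to 3′ on the strand of the gene, with matches to the element in capitals: Isg15 at chr4:156200819-156201068, minus strand, Bst2 at chr8:71537473-71537722, minus strand and Ifit1 at chr19:34640639-34640888, plus strand. In Isg15 and Bst2 the matches overlap one another.
Isg15: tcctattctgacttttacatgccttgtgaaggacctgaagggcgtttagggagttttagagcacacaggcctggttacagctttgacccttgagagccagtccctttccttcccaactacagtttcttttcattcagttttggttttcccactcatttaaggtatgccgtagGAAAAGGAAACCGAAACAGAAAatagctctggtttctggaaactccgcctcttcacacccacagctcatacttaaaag
Bst2: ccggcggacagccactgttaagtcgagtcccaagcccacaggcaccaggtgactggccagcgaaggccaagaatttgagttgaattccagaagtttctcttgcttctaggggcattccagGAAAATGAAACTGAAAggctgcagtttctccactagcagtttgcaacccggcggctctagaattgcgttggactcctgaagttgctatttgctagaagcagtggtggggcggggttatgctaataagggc
Ifit1: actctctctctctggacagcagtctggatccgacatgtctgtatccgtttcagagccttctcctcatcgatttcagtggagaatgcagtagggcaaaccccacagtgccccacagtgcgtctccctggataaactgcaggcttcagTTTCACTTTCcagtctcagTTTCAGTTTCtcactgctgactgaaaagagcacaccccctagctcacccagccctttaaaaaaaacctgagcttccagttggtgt

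Of the 16 called interferon genes, 13 had promoters in the table and 7 of these held the element. It occurs in 2.98% of all 32851 promoter windows of that length. Here and below, a gene was counted if any of its windows held the motif, so gene counts and window shares are unlike measures. The other motifs searched, the lists and the 3 genes shown were chosen with the expression values known, and a match is a description of letters only. Isg15, a ubiquitin-like protein, had 2.63 and 2.60 RPKM in heterozygous and 7.51 and 7.17 in knockout libraries (1.21 ± 0.048, adjusted p = 3.47e-06), with 8.98 and 8.34 in wild type. Bst2, which tethers budding virus, had 9.63 and 11.1 and 20.1 and 21.0 RPKM (0.92 ± 0.059), with 32.3 and 32.3 in wild type. Ifit1, which binds foreign RNA, had 0.795 and 0.801 and 1.62 and 1.59 RPKM (0.53 ± 0.051), and passed through the knockout libraries alone. In these 3 genes the heterozygous libraries were the lowest of the 3 genotypes, and the knockout libraries were below wild type in Isg15 and Bst2. Ifitm3, which blocks viral entry, was at 279.6 and 283 RPKM in heterozygous and 469 and 473 in knockout cells (0.74 ± 0.018, adjusted p = 2.75e-07), here above the 265 and 257 of wild type. The regulators Irf7 (0.62 ± 0.055) and Irf9 (0.50 ± 0.050) were also higher. B2m, the light chain of class I molecules, rose from 142 and 139 to 195 and 197 RPKM (0.47 ± 0.021), while the heavy chain genes H2-K1 (adjusted p = 0.655) and H2-D1 (adjusted p = 0.716) did not pass the test.

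Genes of mitosis were higher in knockout cells in 17 of 18 cases and lower in 0 (median 0.37, or 0.18 with a pseudocount of 5 and 0.24 with a filter at 5 RPKM), and genes of DNA replication in 14 of 24 and 0 (13 of 23; median 0.15). Without the members that passed through 1 genotype alone, the mitosis count was 15 of 16. Many of these genes are driven through CCAAT boxes, bound by NF-Y, and through the cell cycle homology region, CHR (TTTGAA), bound by the DREAM and MuvB complexes. Of the 13 called mitosis genes with promoters in the table, 11 held CCAAT, found in 33.8% of all windows, and 6 held the CHR, found in 16% of them, on either strand. The same 250-base windows of 3 members that hold both are printed with each motif in capitals: Top2a at chr11:99024190-99024439, minus strand, Ccnb2 at chr9:70421555-70421804, minus strand and Cdc20 at chr4:118437344-118437593, minus strand (GRCm38.p6, RefSeq).
Top2a: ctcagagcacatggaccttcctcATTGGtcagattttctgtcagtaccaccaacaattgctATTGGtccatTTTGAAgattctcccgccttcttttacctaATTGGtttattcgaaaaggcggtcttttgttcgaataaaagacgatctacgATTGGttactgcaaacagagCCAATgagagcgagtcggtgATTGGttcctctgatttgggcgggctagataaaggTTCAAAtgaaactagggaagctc
Ccnb2: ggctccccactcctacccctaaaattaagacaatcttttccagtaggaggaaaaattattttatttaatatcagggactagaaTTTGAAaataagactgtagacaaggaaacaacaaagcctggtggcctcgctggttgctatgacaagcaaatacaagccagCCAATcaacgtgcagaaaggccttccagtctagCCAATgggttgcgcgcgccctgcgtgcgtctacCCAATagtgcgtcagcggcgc
Cdc20: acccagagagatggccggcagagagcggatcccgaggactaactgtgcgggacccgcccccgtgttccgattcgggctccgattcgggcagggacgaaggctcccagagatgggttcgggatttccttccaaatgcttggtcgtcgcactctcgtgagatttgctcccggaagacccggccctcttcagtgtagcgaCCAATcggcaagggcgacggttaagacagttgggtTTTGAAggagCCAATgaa

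Top2a, the topoisomerase that untangles chromosomes, went from 2.42 and 2.17 to 4.90 and 4.61 RPKM (0.81 ± 0.061, adjusted p = 6.25e-05). Ccnb2, a mitotic cyclin, went from 1.53 and 1.96 to 2.96 and 2.85 RPKM (0.51 ± 0.075), and Cdc20, which activates the anaphase ubiquitin ligase, from 5.59 and 5.45 to 7.53 and 7.44 (0.38 ± 0.042). Mki67, the proliferation antigen, rose from 0.439 and 0.462 to 1.43 and 1.40 RPKM (0.73 ± 0.053) and passed the filter through the knockout libraries alone. In wild type Top2a was at 1.60 and 1.78 and Mki67 at 0.210 and 0.208 RPKM, the lowest of the 3 genotypes. Of replication genes, Ccne2, an S phase cyclin, rose from 0.975 and 0.870 to 1.85 and 1.87 RPKM (0.57 ± 0.056). It passed the filter through the knockout libraries alone. Tk1, thymidine kinase, rose from 5.09 and 5.52 to 7.13 and 7.21 (0.38 ± 0.047), and Mcm4, of the replicative helicase, from 8.67 and 9.24 to 11.6 and 11.2 (0.32 ± 0.043). Cell cycle inhibitors and p53 targets were mixed, 8 higher and 5 lower of 20: Cdkn1a, the inhibitor p21, fell from 283 and 288 to 249.959 and 253 RPKM (-0.18 ± 0.015), and Ccng1 rose from 65.2 and 64.2 to 83.9 and 81.9 (0.35 ± 0.023).

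The largest falls were in Syt13, an atypical synaptotagmin of membrane traffic, and in the proliferins, prolactin-related hormones of placenta and of growing cultured fibroblasts. Syt13 stood at 12.9 and 13.1 RPKM in the heterozygous and 1.66 and 1.67 in the knockout libraries, 7.79-fold lower (-2.39 ± 0.043, adjusted p = 1.38e-07). Wild type lay between, at 4.14 and 3.91 RPKM. Among the proliferins, Prl2c2 went from 42.8 and 46.8 to 8.75 and 8.56 RPKM (-2.24 ± 0.050, adjusted p = 2.25e-07), against 25.1 and 23.5 in wild type. Prl2c3 (-2.21), Prl2c4 (-2.21), Prl2c1 (-2.01) and Prl2c5 (-1.91) fell by like amounts, but these neighbours on chromosome 13 are near-identical copies whose reads the counting could share, and may not count as separate genes. The same holds for Cd59a and Cd59b, which protect cells from complement: Cd59a fell from 17.8 and 18.3 to 4.61 and 4.78 RPKM (3.84-fold lower, -1.74 ± 0.038) and Cd59b from 5.38 and 5.73 to 1.51 and 1.42 (-1.41 ± 0.051). Acsbg1, an acyl-CoA synthetase, fell from 5.93 and 6.45 to 2.21 and 2.11 RPKM (-1.18 ± 0.061). The unnamed rows Gm12505 (-2.21), Gm20594 (-1.14) and 9330102E08Rik (-1.24) are uncertain gene models, of which Gm12505 and 9330102E08Rik passed through the heterozygous libraries alone. The row 3000002C10Rik had the lowest difference of all (-2.61) but was not called (adjusted p = 0.0583; 0.0494 with a pseudocount of 5 and 0.00214 without the second knockout library), and its libraries disagreed, with 102 and 32.4 RPKM in heterozygous and 2.02 and 29.8 in knockout cells.

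Nrf2 antioxidant genes, which detoxify reactive compounds, were lower in 12 of 17 cases and higher in 0 (11 of 16), with a median of -0.17. Aldh3a1, an aldehyde dehydrogenase, had the lowest value among them, from 3.12 and 3.29 to 0.306 and 0.333 RPKM (-1.67 ± 0.068, adjusted p = 3.67e-06), and passed the filter through the heterozygous libraries alone. Gsta4, a glutathione transferase, fell from 25.3 and 23.1 to 11.043 and 12.3 RPKM (-0.99 ± 0.072), Gclm, of glutathione synthesis, from 14.3 and 14.4 to 10.1 and 10.3 (-0.46 ± 0.034), and Txnrd1, thioredoxin reductase, from 61.1 and 61.3 to 46.0 and 47.1 (-0.39 ± 0.027). For Gclm the wild-type libraries, at 10.979 and 11.1 RPKM, were close to knockout, whereas for Txnrd1 they were the highest, at 78.8 and 75.7.

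Aminoacyl-tRNA synthetases, which charge tRNAs for translation, were lower in 15 of 20 cases and higher in 2 (median -0.21). Atf4 and amino acid stress genes were lower in 11 of 19 and higher in 2 (10 and 2 of 18; median -0.19, or -0.12 with a pseudocount of 5), and enzymes of serine synthesis and one-carbon metabolism lower in 7 of 14 and higher in 0 (median -0.18, or -0.090 with no filter and -0.28 with a filter at 5 RPKM). The transcription factor ATF4 drives many amino acid stress genes through an amino acid response element, taken here as TGATGNAAN on both strands, which occurs in 3.44% of all promoter windows. It was found in 5 of the 10 lower Atf4 list genes, 3 of the 10 lower synthetase genes and 0 of the 6 lower serine and one-carbon genes with promoters in the table. The 250 bases before the start site of 4 of them are shown with the element in capitals (GRCm38.p6, RefSeq): Asns at chr6:7693210-7693459, minus strand, Chac1 at chr2:119350992-119351241, plus strand, Atf3 at chr1:191183334-191183583, minus strand and Aars at chr8:111033592-111033841, plus strand. In Chac1, Atf3 and Aars the element lies on the opposite strand.
Asns: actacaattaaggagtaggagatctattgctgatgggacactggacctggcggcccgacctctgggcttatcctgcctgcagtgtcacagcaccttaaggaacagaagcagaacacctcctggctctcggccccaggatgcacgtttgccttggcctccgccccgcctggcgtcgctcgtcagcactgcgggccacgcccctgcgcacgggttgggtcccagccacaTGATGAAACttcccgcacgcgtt
Chac1: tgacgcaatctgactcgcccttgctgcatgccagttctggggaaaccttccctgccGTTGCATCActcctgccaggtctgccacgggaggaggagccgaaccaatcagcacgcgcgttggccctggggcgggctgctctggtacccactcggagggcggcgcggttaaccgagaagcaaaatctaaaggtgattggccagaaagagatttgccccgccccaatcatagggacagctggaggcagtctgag
Atf3: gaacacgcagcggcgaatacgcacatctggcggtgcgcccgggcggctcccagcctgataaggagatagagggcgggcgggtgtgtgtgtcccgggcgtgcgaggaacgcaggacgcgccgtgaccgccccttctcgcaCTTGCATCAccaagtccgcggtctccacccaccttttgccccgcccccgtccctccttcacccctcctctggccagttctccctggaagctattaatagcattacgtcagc
Aars: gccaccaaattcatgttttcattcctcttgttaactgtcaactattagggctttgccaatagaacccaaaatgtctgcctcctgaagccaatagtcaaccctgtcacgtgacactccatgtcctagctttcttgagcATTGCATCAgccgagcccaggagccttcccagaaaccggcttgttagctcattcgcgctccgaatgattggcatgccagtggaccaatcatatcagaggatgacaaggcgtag

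Asns, asparagine synthetase, fell from 61.7 and 61.1 to 41.6 and 42.9 RPKM (-0.53 ± 0.032, adjusted p = 2.04e-05), with 73.0 and 77.1 in wild type. Chac1, which degrades glutathione, fell from 13.6 and 14.1 to 9.40 and 9.41 RPKM (-0.51 ± 0.042), and Atf3, a stress-induced repressor, from 2.44 and 2.39 to 1.49 and 1.2461 (-0.53 ± 0.061). Aars, the alanyl-tRNA synthetase, fell from 73.6 and 76.2 to 63.7 and 62.4 RPKM (-0.24 ± 0.025, adjusted p = 0.000248). Atf4 mRNA itself did not fall: it was at 81.3 and 82.3 RPKM in heterozygous and 87.1 and 87.1 in knockout libraries (0.089 ± 0.024, adjusted p = 0.0193), and its call as higher was lost without the first heterozygous or either knockout library (adjusted p = 0.0772 to 0.0821) and with no intensity trend (0.0762). Trib3, a pseudokinase induced by ATF4, fell from 9.58 and 9.42 to 6.00 and 5.82 RPKM (-0.60 ± 0.037). In serine synthesis, Phgdh, the first enzyme, went from 131 and 134 to 78.3 and 81.7 RPKM (-0.72 ± 0.024, adjusted p = 1.6e-06), with 276 and 275 in wild type, and Psph, the last, from 17.6 and 17.9 to 12.1 and 12.6 (-0.49 ± 0.034). Mthfd2, of mitochondrial one-carbon metabolism, fell from 23.3 and 23.5 to 16.3 and 16.0 RPKM (-0.51 ± 0.041). For Asns, Phgdh, Psph and Mthfd2 the heterozygous values lay between those of wild type and knockout.

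Schwann cell and neural crest genes were lower in 7 of 10 cases and higher in 2, with a median of -0.53. Of the 10, 3 passed through the heterozygous libraries alone, and of the other 7, 4 were lower and 2 higher, with a median of -0.24. Over all 10 the median was -0.18 with a pseudocount of 5 and -0.85 with 0.1, and it was -0.24 with no filter and -0.22 with a filter at 5 RPKM. Ngfr, the neurotrophin receptor p75, fell from 23.9 and 23.3 to 10.9 and 11.2 RPKM (-1.03 ± 0.037, adjusted p = 2.17e-06), Sox10, the regulator of the glial lineage, from 5.07 and 4.92 to 2.02 and 2.10 (-0.97 ± 0.060), and Nes, an intermediate filament of progenitors, from 18.4 and 17.9 to 10.9 and 10.9 (-0.69 ± 0.032). Of 8 autosomal markers of these cells, 7 were lower without overlap and 0 higher, beside 39.1% lower and 38.7% higher of the 10330 genes tested. Among these markers 4 passed the filter, 2 of them through the heterozygous libraries alone, and those had to be lower. The other 4 lay under the filter. Of these, 3 were lower without overlap, beside 15.3% of the 7133 autosomal genes under the filter and above 0. The 8 summed to 33.2 to 34.6 RPKM in heterozygous, 15.6 to 16.3 in knockout and 27.1 to 27.5 in wild-type libraries. Ngfr alone held 23.9 and 23.3 RPKM of the heterozygous sums and 10.9 and 11.2 of the knockout sums. The part of such cells in the falls of this comparison was not tested. Markers of endothelium, epidermal keratinocytes and lymphocytes passed the filter in 0 cases. They summed to at most 0.264 RPKM for 8 endothelial, 1.52 for 9 keratinocyte and 0.0993 for 6 B and T cell markers in the 4 libraries compared, and Emcn, Cldn5, Cd3e and Cd3g were at 0 in all 4. Of 8 skeletal muscle markers 2 passed, with 1 higher, and Myod1 and Myf5 were at 0 in all 4 libraries. Of 7 chondrocyte markers 2 passed and 0 were called, of 7 osteoblast markers 3 passed and Spp1 was higher, and of 6 adipocyte markers 1 passed: Fabp4, a fatty acid carrier that macrophages also make, at 2.14 and 1.80 RPKM in heterozygous and 4.30 and 4.63 in knockout libraries (0.88 ± 0.067), while Adipoq was at 0 in all 4.

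Hox genes, the transcription factors of body position, were called higher in 4 and lower in 3 of 19 cases that passed, with a median of -0.014. Without 2 that passed through the heterozygous libraries alone, the counts were 4 and 1 of 17. Among all genes 26.1% were higher and 25.8% lower. After quantile normalization 4 Hox genes were higher and 5 lower. Hoxb13, the most posterior gene of its cluster and a marker of the tail, rose from 23.5 and 23.6 to 31.4 and 33.9 RPKM (0.45 ± 0.039, adjusted p = 0.000109), with 19.5 and 19.7 in wild type. Hoxa13 rose from 1.02 and 1.02 to 1.93 and 1.98 RPKM (0.55 ± 0.079). Of the HoxD cluster, whose genes have been discussed as targets of the human transcript, only Hoxd8 passed, through the heterozygous libraries alone, at 1.08 and 1.03 RPKM there and 0.669 and 0.481 in knockout cells (-0.39 ± 0.070). Hoxd9 stood at 0.732 and 0.837 and 0.450 and 0.522 RPKM, Hoxd13 at 0.0965 and 0.167 and 0.0917 and 0.0697, and Hoxd12 at 0 in all 4 libraries.

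Other patterning transcription factors split into 8 higher and 10 lower of 23 (7 and 6 of 18). Zic1, of the dorsal midline, rose from 1.98 and 2.27 to 5.47 and 4.86 RPKM (0.98 ± 0.069, adjusted p = 4.29e-05). Twist2, a regulator of dermal fibroblasts, fell from 25.1 and 25.1 to 14.1 and 14.3 RPKM (-0.78 ± 0.030). Among Wnt, BMP and TGF-beta ligands and inhibitors 13 of 28 were higher and 8 lower (11 and 8 of 26). The ligands Wnt4 and Wnt5a fell, from 12.8 and 13.1 to 5.94 and 6.07 RPKM (-0.99 ± 0.038) and from 17.7 and 18.3 to 11.2 and 11.1 RPKM (-0.64 ± 0.033), and the Wnt inhibitor Sfrp2 rose from 0.664 and 0.771 to 2.42 and 2.30 (0.97 ± 0.058), having passed through the knockout libraries alone. Adhesion genes of the cadherin and protocadherin families gave 3 higher and 6 lower of 12. The atypical cadherin Fat4 rose from 2.89 and 2.88 to 5.46 and 5.52 RPKM (0.74 ± 0.044), and Cdh11, the cadherin of mesenchyme, fell from 69.0 and 70.6 to 53.2 and 53.6 (-0.38 ± 0.024).

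The subunits of the complexes linked to Hotair changed by small amounts. In PRC2, 3 of 8 members were higher and 1 lower. Eed rose from 3.87 and 3.9002 to 5.10 and 5.03 RPKM (0.31 ± 0.046) and Suz12 from 2.35 and 2.30 to 3.04 and 3.07 (0.29 ± 0.045), both core subunits, while Ezh2, the methyltransferase, did not pass the test at 3.25 and 2.86 and 3.46 and 3.38 RPKM (0.13 ± 0.061, adjusted p = 0.12). Rbbp4, a histone chaperone, fell from 28.7 and 27.4 to 25.3 and 25.1 RPKM (-0.15 ± 0.033), a call lost after quantile normalization (adjusted p = 0.0714). Ezh2 was called without the first heterozygous library (adjusted p = 0.0477). In the LSD1-CoREST-REST list 8 of 11 were higher and 0 lower, with a median of 0.14. After quantile normalization 7 were higher and 1 lower. Kdm1a, the LSD1 demethylase, went from 17.8 and 18.0 to 19.4 and 19.3 RPKM (0.11 ± 0.035, adjusted p = 0.0373), Rcor1, its CoREST scaffold, from 9.43 and 9.32 to 10.1 and 10.5 (0.12 ± 0.039), and Rest, a repressor of neuronal genes, from 8.74 and 8.73 to 10.6 and 10.3 (0.23 ± 0.038). The calls of Kdm1a and Rcor1 were lost without any 1 of the 4 libraries (adjusted p = 0.091 to 0.144 and 0.0575 to 0.191), and that of Kdm1a with no intensity trend (0.0532). Eed, Suz12, Kdm1a, Rcor1 and Rest had separate libraries in the 2 genotypes, with differences under 0.4 on the log2 scale. Of the other members called higher, Hdac2 was no longer called without the first heterozygous or the first knockout library. Gse1 was no longer called without the first heterozygous or the second knockout library.

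Whether the second disrupted copy changed a gene by as much as the first was tested with the contrast knockout minus 2 times heterozygous plus wild type, in which 0 means equal steps. It was above 0 for 1436 genes (13.9%) and below 0 for 2354 (22.8%), 36.7% of the 10330 in all. After median scaling the counts were 1927 above and 1692 below, and after quantile normalization 1712 and 1867, so the balance between both directions depended on the scaling. The 8 highest values belonged to genes whose heterozygous libraries were the lowest, apart from Acp5, whose wild-type and heterozygous libraries overlapped. For Lyz2 the contrast was 4.36 ± 0.093 (adjusted p = 3.51e-07), for Mmp9 4.10 ± 0.10, for Acp5 3.91 ± 0.10 and for Hspb7, a small heat shock protein of muscle, 2.64 ± 0.083. Hspb7 was at 4.45 and 4.81 RPKM in wild type, 2.67 and 2.83 in heterozygous and 14.5 and 14.6 in knockout libraries. Apol10b, an apolipoprotein L gene, dipped from 2.92 and 2.92 RPKM in wild type to 0.418 and 0.255 in heterozygous cells. It stood at 3.29 and 3.42 RPKM in knockout (contrast 3.26 ± 0.11, adjusted p = 2.32e-06), having passed the filter through the knockout libraries alone. Isg15 followed the same course (2.62 ± 0.084). Lce1h, a protein of the cornified envelope, was at 12.3 and 11.5, 2.16 and 1.64 and 3.26 and 2.96 RPKM (2.67 ± 0.15), so that the knockout step regained little of the first.

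At the other end stood genes that were highest in heterozygous cells. Syt13 had a contrast of -3.87 ± 0.075 (adjusted p = 3.51e-07), Cd59a of -3.13 ± 0.066, Aldh3a1 of -2.98 ± 0.12 and Prl2c2 of -3.10 ± 0.086. Cd59a was at 6.28 and 6.28 RPKM in wild type, so that knockout cells lay below wild type and heterozygous cells above. For Igfbp5 the contrast was -2.51 ± 0.053. The row 3000002C10Rik had the lowest value (-8.29 ± 1.70, adjusted p = 0.00829), but its libraries disagreed and its call was lost without the first heterozygous library (adjusted p = 0.062). By list, 18 of 21 interferon genes, 16 of 18 contractile genes and 16 of 20 cholesterol genes were above 0, each with 0 below, while 12 of 17 Nrf2 genes and 12 of 20 collagen chains were below. Acta2, smooth muscle actin, shows the form of the contractile genes: 1976 and 1971 RPKM in wild type, 1018 and 1023 in heterozygous and 1137 and 1128 in knockout libraries (1.10 ± 0.013, adjusted p = 5.59e-08). Its heterozygous and knockout values differed by 0.15 ± 0.0077 alone. For Mgp (-0.30 ± 0.12), Lum (-0.24 ± 0.087) and Ogn (-0.027 ± 0.10), which rose at both steps, the contrast did not pass the test (adjusted p = 0.0814, adjusted p = 0.067 and adjusted p = 0.853), which does not show that their steps were equal. Since the contrast rests on the heterozygous libraries, whose sex-linked genes set them apart from both other genotypes, genotype and that difference cannot be told apart here either.

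**Figure D5:**
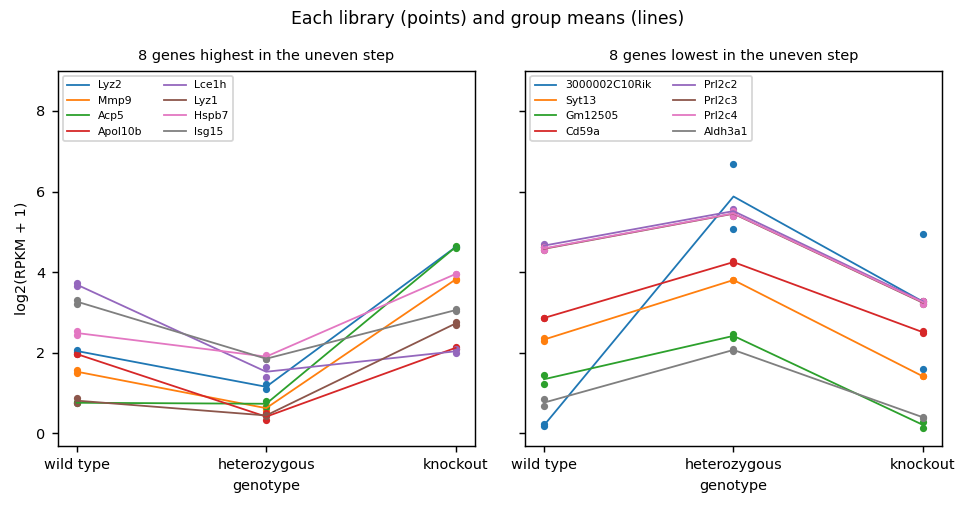
Level in wild-type, heterozygous and knockout cells (log2(RPKM + 1), points for each library, lines through the group means) of the 8 called genes with the highest (left) and the 8 with the lowest (right) value of the uneven step contrast. Genes on the left dip or stay low in heterozygous cells and are higher in knockout; those on the right peak in heterozygous cells, and the row 3000002C10Rik shows libraries of 1 genotype that disagree.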

How the data were processed

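Polyadenylated RNA of 6 libraries was used; ChIP-seq data of the series (6 libraries) were not analysed here. Libraries followed the dUTP protocol, per the labels' protocols, and the submitters' processing notes name TopHat and mm9; the annotation, the counting tool, its strand setting and any filter are not given in the sources. The deposited table holds RPKM values from coverage tracks, 1 row per gene symbol, per the file headers; its unit is not named there and was identified from the values. Taking reads of 74 bases, 18884 of the 18888 genes above 0 had a transcript length at which the aligned bases were whole (tolerance 0.002 bases), which also gave the depths. The floor given for Hotair covers counting error only, whereas ± is the SE of the fit, from the spread among libraries. Chromosomes came from RefSeq by symbol (23170 symbols matched).

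The fit took log2(RPKM + 1) of all 6 libraries, for genes that reached 1 RPKM in 2 or more of the 4 compared (10810 on all chromosomes), with limma 3.58.1 in R 4.3.3 (intensity trend, 2-sided, Benjamini-Hochberg adjustment). The wild-type libraries add to the estimate of spread. With 2 libraries against 2 an exact permutation test cannot give a p under 0.333, so none is given. The fit was tested on simulated data, and the outcome is not given here. Simulated libraries cannot show how much animals or cultures of the same genotype differ, so that test does not bear on the calls reported. The genes and lists (46 lists, 897 entries, of which 890 matched) were chosen with earlier results of these data known. Named genes were Hotair, the 15 largest rises and falls among called genes without overlap, in each list the up to 4 members of smallest p, the 8 highest and 8 lowest called uneven steps, cell markers and sex-linked genes. Named outside this rule, after their values were seen, are Ccnb2, Ifit1, Atf3, Atf4, Ezh2, Kdm1a, Rcor1, Dio3, Hoxc11, Hoxc12, Hoxc13, Hoxd9, Hoxd12, Hoxd13, Il34, Csf1, Tnfsf11, Tnfrsf11b, Gpnmb, Car2, Igfbp2, Igfbp3, Igfbp6, Irf7, Irf9, Cilp, Angptl7, H2-K1 and H2-D1. Some genes that the rule names are not reported here. Motifs were searched in the 250 bases before each RefSeq start site. A gene counted as a match if any of its windows held the motif, whereas the share of all windows takes each window singly. The 16 alternatives were a pseudocount of 0.1 or 5, no filter, a filter at 5 RPKM or on the mean of the 4 libraries, quantile normalization, median scaling, the 4 libraries only, no intensity trend, a replicate block, and leaving out each of the 6 libraries.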

Additional observations from a re-analysis of the deposited data

How the results depend on the processing

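Of the calls, 84.7% were also made after quantile normalization (2418 higher, 2759 lower; 3 of the shared calls in the opposite direction) and 98.8% after median scaling (2660 and 2738). The count of higher genes was 1519 with a filter at 5 RPKM. The 2-fold counts rest on the pseudocount: 106 higher and 66 lower with 0.1, 15 and 9 with 5, and 29 higher with the 5 RPKM filter. Leaving out each of the 4 libraries compared gave 1970 to 2296 higher, 1907 to 2287 lower, and 51 to 53 higher and 25 to 29 lower at 2-fold; without 1 wild-type library 2723 or 2722 were higher and 2678 lower. Leaving out each of the 6 gave 1006 to 1335 genes above and 1464 to 2188 below in the uneven step contrast, where the 1464 came without the second heterozygous library. Replicate numbers do not pair the libraries (correlation of deviations between heterozygous and knockout libraries 0.0689); with a replicate block 2632 genes were higher and 2560 lower, and of the named genes Kdm1a (adjusted p = 0.0501), Rcor1 (0.0527) and Tnfsf11 (0.0534) were no longer called. Small differences that were not called changed sign: leaving out 1 library gave -0.096 to 0.066 for Lce1g, -0.028 to 0.010 for Acta1, -0.0036 to 0.081 for Runx2, -0.14 to 0.079 for Hoxc12, -8.9e-05 to 0.024 for Hoxc13 and -0.062 to 0.019 for H2-K1, and quantile normalization -0.0032 for Hapln1, -0.0020 for Mkx and 0.029 for H2-K1. Several list medians depend on the pseudocount, the filter or the scaling, and only some of the changed values are given in the results. Quantile normalization gave a median of 0.30 for small leucine-rich proteoglycans and -0.70 for Schwann cell and neural crest genes. With a pseudocount of 0.1 the median was 0.72 for interferon response genes and 0.50 for mitosis genes. With no filter the interferon median was 0.34. The cause of these changes was not tested. Depth limits genes near 1 RPKM, which on a 2 kb transcript stands for 62.3 to 96.1 reads per library.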

Other observations

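Of the 18 contractile genes that passed, 10 were higher and 3 lower in knockout than in heterozygous cells (9 and 3 of 17 without Des, which passed through the knockout libraries alone), with a median log2 difference of 0.10. Myl9, a myosin light chain, rose from 337 and 336 to 402 and 409 RPKM (0.27 ± 0.013, adjusted p = 7.87e-06), with 538 and 545 in wild type, and Des, the muscle intermediate filament desmin, from 0.751 and 0.878 to 3.22 and 2.81 (1.14 ± 0.074). Targets linked to YAP and serum response factor were mixed, 4 higher and 6 lower of 16. Ankrd1, a YAP target, fell from 12.6 and 13.4 to 6.25 and 6.75 RPKM (-0.90 ± 0.053, adjusted p = 1.89e-05), and Ctgf and Cyr61, both matricellular growth regulators, fell from 279 and 282 to 215 and 214 and from 444 and 448 to 351 and 352 RPKM. F3, tissue factor, rose from 67.4 and 68.0 to 91.9 and 88.5 RPKM (0.41 ± 0.024).

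Ribosomal protein genes were higher in 26 of 40 cases and lower in 11, with a median of 0.082. After quantile normalization 21 were higher and 14 lower, with a median of 0.033. Among all 398 autosomal genes over 100 RPKM, 148 were higher and 180 lower, and the part of level in these counts was not tested. Rplp1, of the ribosomal stalk, rose from 1521 and 1544 to 2181 and 2194 RPKM (0.51 ± 0.010, adjusted p = 1.83e-07) and Rps24 from 299 and 299 to 463 and 455 (0.62 ± 0.014). Oxidative phosphorylation subunits gave 9 higher and 12 lower of 35, and among them Cox5b, of cytochrome oxidase, rose from 74.5 and 74.3 to 114 and 114 RPKM (0.60 ± 0.020). Glycolysis and hypoxia genes gave 4 higher and 8 lower of 21: Pgam1, phosphoglycerate mutase, fell from 323 and 323 to 260.5 and 264 RPKM (-0.30 ± 0.013), and Bnip3, a mitophagy receptor, rose from 5.60 and 5.24 to 9.29 and 8.90 (0.65 ± 0.062). Chaperones of the endoplasmic reticulum gave 7 higher and 8 lower of 20, with Hsp90b1, which folds secreted proteins, going from 65.4 and 63.9 to 101 and 96.8 RPKM (0.61 ± 0.028). Cholesterol genes gave 4 higher and 7 lower of 20. Idi1, an early enzyme of the pathway, rose from 3.98 and 3.30 to 6.98 and 6.87 RPKM (0.78 ± 0.069). Of the cornified envelope genes 4 passed, with 3 higher and 0 lower, 1 of the 4 through the knockout libraries alone.

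Of 312 X-linked genes that passed the same filter, left out of all counts above, 120 were higher and 49 lower in knockout cells (54.2% called). Of the 10330 autosomal genes, 2693 were higher and 2668 lower (51.9% called). The heterozygous libraries stood apart in Xist and the Y genes, and genotype and that difference cannot be told apart here. Among the X-linked genes Tnmd, the tendon protein tenomodulin, stood at 3.93 and 3.67 RPKM in heterozygous and 9.39 and 8.48 in knockout libraries (1.05 ± 0.075), with 1.73 and 2.11 in wild type.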
